A study of Rattus norvegicus with 4 samples.

Results

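The semaphorins, ephrins, Slits and netrins are the classical guidance cues of the developing nervous system, and plexins, Eph receptors, Robos, Dcc and the Unc5 proteins are their receptors. Their transcripts were examined in rat oligodendrocyte precursor cells (OPCs) after silencing of GPR17, a G protein-coupled receptor of the differentiating oligodendrocyte lineage. Genes were taken by name, through the RefSeq record of each probe. Every matched gene was taken whose symbol began with Sema3 to Sema7, Plxn, Epha, Ephb, Efna, Efnb, Slit1 to Slit3, Robo, Ntn1, Ntn4 or Unc5. Dcc was added. The gene table held 68 such symbols, and those without a matched probe were not analysed here. Below, genes on the array are genes matched in this way. This gave 53 of the 16581 named genes on the array, measured by 72 probes. Of the 53, 45 genes entered the test, which required a probe well above background on 2 or more of the 4 arrays, beside 11656 tested genes in all. The prefix Unc5 also took in Unc50 and Unc5cl, which are not netrin receptors. They are left out of the family counts but stay in the 53 genes, and Unc50 in the 45 tested.

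Guidance cues act as attractants or repellents for migrating cells and growing axons. Secreted class 3 semaphorins mostly signal through a neuropilin and a plexin, whereas the membrane-bound classes bind plexins directly. Ephrins are membrane-bound ligands of the Eph receptor tyrosine kinases, Slits are secreted ligands of Robo receptors, and netrin-1 signals through Dcc and the Unc5 receptors. In the oligodendrocyte lineage, Sema3A and netrin-1 are known for steering OPC migration, and several of these cues for altering OPC differentiation.

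OPCs were isolated from pooled cortices of Sprague-Dawley rats at postnatal day 2, without a genetic modification, and kept for 3 days with bFGF and PDGF before transfer to differentiation medium. They received 50 nM of a negative control siRNA (siNEG, 2 samples) or of a pool of siRNAs against rat GPR17 (siGPR17, 2 samples). RNA was collected 48 h later, at day in differentiation 2, and each sample was hybridized to its own one-color Agilent array. The labels speak of independent samples without naming separate cultures or animals, so that p-values measure only the spread between these samples, which may be technical.

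The scaling value of each array, its 75th percentile of signal, lay between 564.3 and 623.2, and 26997 to 28244 probes per array were well above background. All 4 arrays lay on 1 slide, the siNEG samples in one column and the siGPR17 samples in the other, so that slide column and treatment cannot be told apart. Gpr17 gave normalized signals of 1107 and 1113 in siNEG and 652 and 639 in siGPR17, which is 58.2% of the control mean. Its log2 fold change was -0.78 ± 0.0847 (SE, n = 2 per group), with an adjusted p of 0.21 in limma, past the threshold only after normexp (0.0235) and with the trend and robust options described below (0.0147). All 10 listed OPC markers, Gpr17 among them, had lower values in siGPR17, as did 48% of all tested genes. The 9 others ran from -0.48 to -0.016 on the log2 scale. Summed over the 10, signals were 237393 to 278788 in siNEG and 225327 to 225760.0 in siGPR17. All 11 tested neuron markers of 12 listed were lower too (15899 to 17008.5 against 13023 to 13687, with Slc17a7 nowhere well above background). Values just below 0 depend on the scaling. With scaling on the array's spike-in controls, the median log2 fold change over all genes rose from 0.0099 to 0.14. Of 9 listed endothelial markers, 4 of 5 tested were higher (1135 to 1236 against 1608 to 1711), while Pecam1, Cldn5 and Emcn were nowhere well above background. The mature oligodendrocyte list had 4 of 9 tested genes higher and 5 lower (342092 to 388129 against 396808 to 409926), with Mal and Ermn nowhere well above background. In the astrocyte list 5 of 10 were higher and 5 lower, with log2 fold changes from -1.35 (Aqp4) to 0.50 (S100b). The part of cell composition in the values below was not tested. In these bulk samples, fewer cells of a type and less RNA per cell cannot be told apart.

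No guidance gene passed the combined threshold of the study, a fold of at least 1.5 with an adjusted p under 0.07. The count was 0 of 45 in limma, against 0% of all 11656 genes, and 0 of 45 with the methods' t-test, against 0%. The latter test is the one that the paper's methods give for comparisons of 2 groups in general. The methods name no test for the arrays, so the study's calls may rest on another one. The study did report differentially expressed genes at the combined threshold. Its calls were thus not reproduced with the tests used here, and these counts do not show which guidance genes it called. The adjusted p-values of the 45 genes ran from 0.21 to 0.965. At an unadjusted p under 0.05, limma gave 10 of 45 genes (22.2%), against 16.1% of all genes, and the methods' t-test gave 9 (20%), against 14.4%. The 3 higher genes were Epha4, Sema3b and Sema3e (6.67%, against 7.41% of all genes). The 7 lower genes were Efna5, Efnb3, Epha5, Plxna3, Sema3c, Sema4b and Unc5a (15.6%, against 8.71%). Epha4 had passed the filter through its siGPR17 arrays alone, so its place in the higher count is not a test result. With probes required on all 4 arrays, which removed Epha4, 3 of 43 genes were higher (6.98%, against 8.11% of all genes). There 9 were lower (20.9%, against 9.66%). The balance depended on the setting. The methods' t-test gave 6 higher genes (13.3%, against 8.05% of all genes) and 3 lower (6.67%, against 6.32%), with 5 genes shared with limma. Scaling on the array's spike-in controls also gave 6 higher (13.3%, against 13.3%) and 3 lower (6.67%, against 3.59%). With the replicate number as a block, 8 genes had such a p (17.8%, against 11% of all genes). Epha4 is counted in each of these settings, where its place is not a test result either. The options for a mean-variance trend and robust moderation brought 2 guidance genes past the combined threshold, Sema3e and Sema4b (4.44%, against 1.58% of all genes). With normexp background correction the count was 0 of 45, against 0.952% of all genes.

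By size alone, 6 genes differed by at least 1.5-fold with no overlap between the groups (13.3%, against 4.64% of all genes). Epha4 and Sema3e were higher in siGPR17 (4.44%, against 2.16%), and Ephb1, Sema3a, Sema3c and Sema4b were lower (8.89%, against 2.48%). With probes required on all 4 arrays, which removed Epha4, Sema3e alone was higher among 43 genes (2.33%, against 1.42%). Spike-in scaling left 2 higher genes (4.44%, against 3.92%) and 1 lower gene, Sema3a (2.22%, against 1.14%). Another background correction, normexp, which here also added an offset of 50 to every signal, left 0 in either direction. Of all genes it left 0.558% higher and 0.472% lower. Regardless of size, both silenced samples exceeded both controls for 12 genes (26.7%, against 28%) and lay below them for 18 (40%, against 25.2%). Over the 45 genes, 21 fold changes were above 0 and 24 below, with a median log2 fold change of -0.092 beside 0.0099 over all genes. With spike-in scaling the median over all genes moved to 0.14 and the median of the guidance genes to 0.037. There 20 of the 45 values were below 0 (44.4%, against 27.2% of all genes). The non-overlapping guidance genes numbered 16 higher (35.6%, against 49.2% of all genes) and 12 lower (26.7%, against 13.2%).

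**Figure D1:**
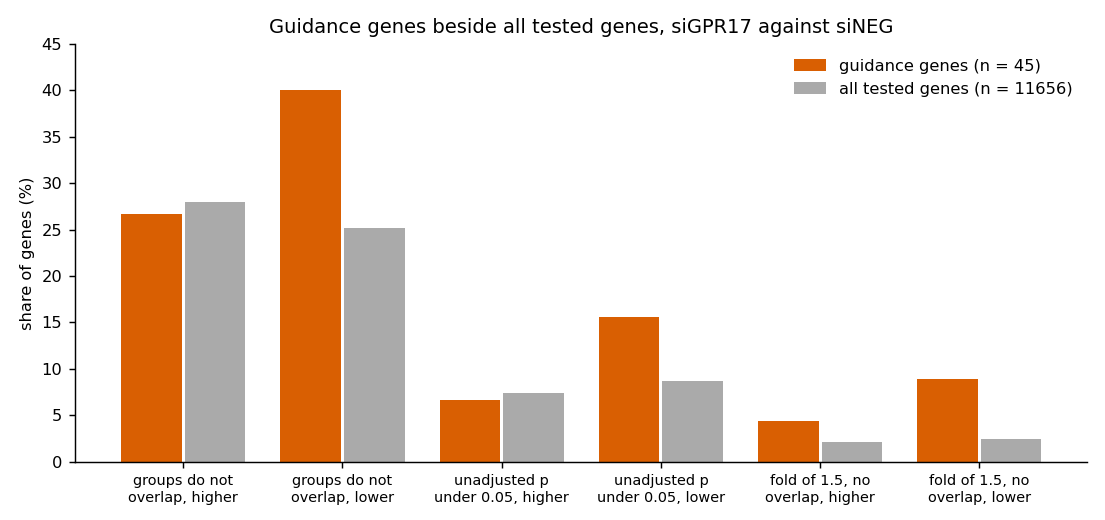
Share of genes (%, vertical axis) meeting each rule in siGPR17 against siNEG, for the 45 tested guidance genes (orange) and all 11656 tested genes (gray). The orange bar was the taller in the 3 rules for lower genes (40% against 25.2%, 15.6% against 8.71%, 8.89% against 2.48%) and in the fold rule for higher genes (4.44%, 2 genes including Epha4, against 2.16%). It was the shorter in the other rules for higher genes. With the methods' t-test the p-value shares were 13.3% higher (Epha4 included, against 8.05% of all genes) and 6.67% lower (against 6.32%). No gene passed the multiple testing in limma in either set.

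**Figure D2:**
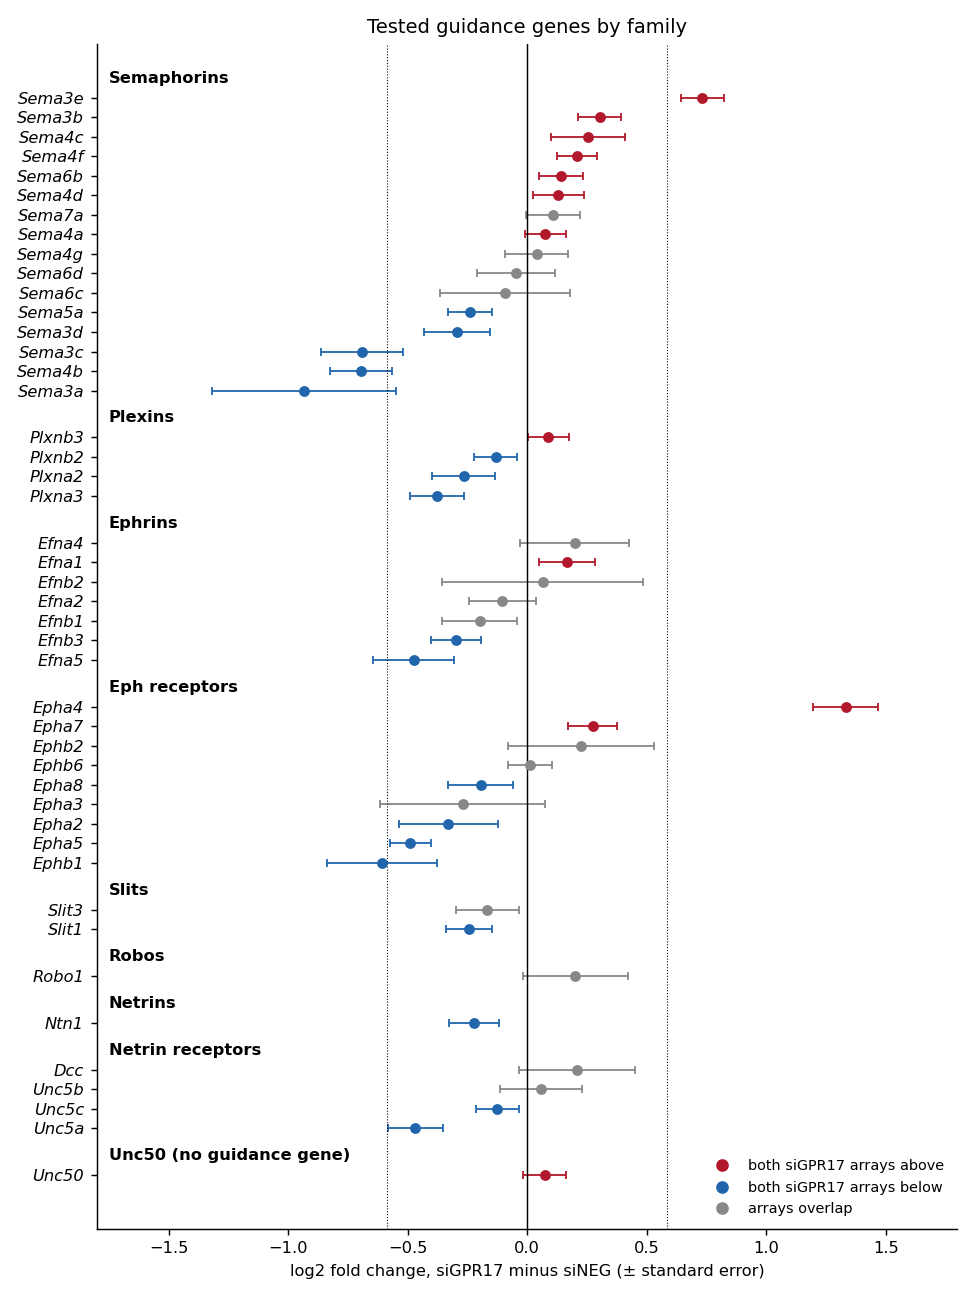
Log2 fold change of each tested guidance gene (horizontal axis, siGPR17 minus siNEG, points with the limma standard error, n = 2 per group), ordered within families, with dotted lines at a fold of 1.5. Epha4 (1.33) and Sema3e (0.73) lay beyond the right line and Sema3a (-0.93) lay farthest to the left. Colors mark genes whose siGPR17 arrays lay both above, both below, or among the siNEG arrays.

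The secreted semaphorins differed in both directions. Of 6 class 3 genes on the array, 5 were tested, 2 higher and 3 lower, and in none of the 5 did the groups overlap, which was true of 53.2% of all genes. Sema3e, whose protein binds plexin-D1 without a neuropilin, gave signals of 204 and 199 in siNEG and 344 and 325 in siGPR17. Both silenced samples were high and the replicates lay close together within each group. The log2 fold change was 0.73 ± 0.09 (SE, n = 2 per group) with an adjusted p of 0.21 in limma, and 0.0249 with the trend and robust options.

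Sema3a encodes the prototype repellent of the class, which acts through neuropilin-1 and A-type plexins. Its signals were 349 and 166 in siNEG and 133 and 119.6 in siGPR17. Both silenced samples were low, but the control replicates stood farther apart from each other than the lower of them stood from the silenced samples. Its log2 fold change was -0.93 ± 0.385, with an adjusted p of 0.329. Leaving out siNEG replicate 2 gave -1.47, and leaving out siNEG replicate 1 gave -0.40. Of 9 tested microglial markers, 8 were also higher in siNEG replicate 1 than in replicate 2, with Cd68 (549 and 796) the exception. Of these, 2 are given, picked after their values were seen. Cx3cr1, the fractalkine receptor of microglia, gave 2511 and 1241 in siNEG and 1338 and 1884 in siGPR17. Itgam, an integrin chain of microglia, gave 238 and 77.1 in siNEG and 131 and 133 in siGPR17. Over the 11 listed genes, summed signals were 2711 to 4023 in siNEG and 2724 to 3177 in siGPR17, and Csf1r and Ptprc were nowhere well above background. Their part in the Sema3a values was not tested.

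Sema3b and Sema3c, a further pair of secreted ligands that bind neuropilins, went opposite ways. Sema3b gave 70.9 and 68.3 in siNEG and 83.9 and 87.8 in siGPR17, a log2 fold change of 0.30 ± 0.0892 with an adjusted p of 0.256. Sema3c gave 38.4 and 29.0 in siNEG and 19.5 and 21.9 in siGPR17. The groups did not overlap in either gene, and the difference of Sema3c was larger. Its log2 fold change was -0.69 ± 0.173, with an adjusted p of 0.232, and with normexp it was only -0.13. Sema3d, the remaining tested class 3 gene, had a log2 fold change of -0.29 and an adjusted p of 0.368, and for Sema3g no array was well above background.

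The membrane-bound semaphorins of classes 4 to 7 comprised 11 genes, all tested, 7 higher and 4 lower (median log2 fold change 0.077). Sema4b, a transmembrane semaphorin, had the largest difference among them. It gave 395 and 452 in siNEG and 281 and 243 in siGPR17. Both silenced samples were low, by more than the replicates differed in either group. The log2 fold change was -0.69 ± 0.129 with an adjusted p of 0.21, and 0.0374 with the trend and robust options, and the estimate stayed between -0.80 and -0.54 over the settings tried. A second Sema4b probe was well above background on 1 array only and was not tested.

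Promoter sequences, of 250 bases before to 50 after the gene start, were taken from RefSeq (GRCr8) and matched 42 of the 53 genes. They are given for Sema3e and Sema4b because this pair passed the combined threshold with the trend and robust options, with opposite signs, and because both held the E-box CACGTG. The promoters of Ephb1 and Sema3c, also among the genes past 1.5-fold, held none of the motifs searched. For Sema3a and Epha4, the remaining genes past 1.5-fold, no promoter was matched, so they were not searched. Capitals mark matches to CACGTG and to the shorter ACGTG, which overlaps it, on either strand. The Sema3e promoter is at chr4:21510325-21510624 on the minus strand, with the E-box 14 bases before the start and a further ACGTG on the opposite strand 143 bases before it. The Sema4b promoter is at chr1:143558547-143558846 on the plus strand, with the E-box 96 bases before the start. Both are printed 5′ to 3′ along the gene.
Sema3e: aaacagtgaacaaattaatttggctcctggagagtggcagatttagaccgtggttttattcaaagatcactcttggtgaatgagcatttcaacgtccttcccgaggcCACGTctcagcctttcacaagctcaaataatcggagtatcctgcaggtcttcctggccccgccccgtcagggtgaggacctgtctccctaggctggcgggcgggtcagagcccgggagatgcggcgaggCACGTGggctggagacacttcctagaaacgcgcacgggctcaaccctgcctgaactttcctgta
Sema4b: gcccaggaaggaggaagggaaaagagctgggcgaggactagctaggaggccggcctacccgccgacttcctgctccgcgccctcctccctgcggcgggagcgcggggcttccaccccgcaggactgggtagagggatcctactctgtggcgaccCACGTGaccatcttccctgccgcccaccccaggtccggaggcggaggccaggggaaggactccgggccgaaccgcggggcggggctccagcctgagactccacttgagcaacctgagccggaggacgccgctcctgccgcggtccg
The E-box CACGTG was held by 4 of the 42 guidance promoters (Efna5, Epha8, Sema3e and Sema4b) and by 6.42% of all 33469 promoters. ACGTG was held by 9 of the 42 and by 19.3% of all. Of these promoters, 7 held the SOX core ACAAAG, against 18.8% of all promoters, and 1 held the cyclic AMP response element TGACGTCA, against 1.83% of all. The 300 bases were searched on both strands, and a match is a description of the letters. The guidance promoters had a median GC content of 60.7%, against 51.7% over all promoters.

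Sema4d, a ligand of plexin-B1 that oligodendrocytes make, had a log2 fold change of 0.13 with a 95% interval from -0.16 to 0.42 and an adjusted p of 0.568. Sema5a, a ligand of plexin-B3 expressed in the oligodendrocyte lineage, gave 2706 and 2813 in siNEG and 2407 and 2271 in siGPR17. The silenced samples were the low ones, at a log2 fold change of -0.24 ± 0.0911 and an adjusted p of 0.31. The other 8 genes of these classes lay between -0.092 and 0.25. Sema3f and Sema6a, which also act on oligodendrocyte lineage cells, were not analysed here.

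**Figure D3:**
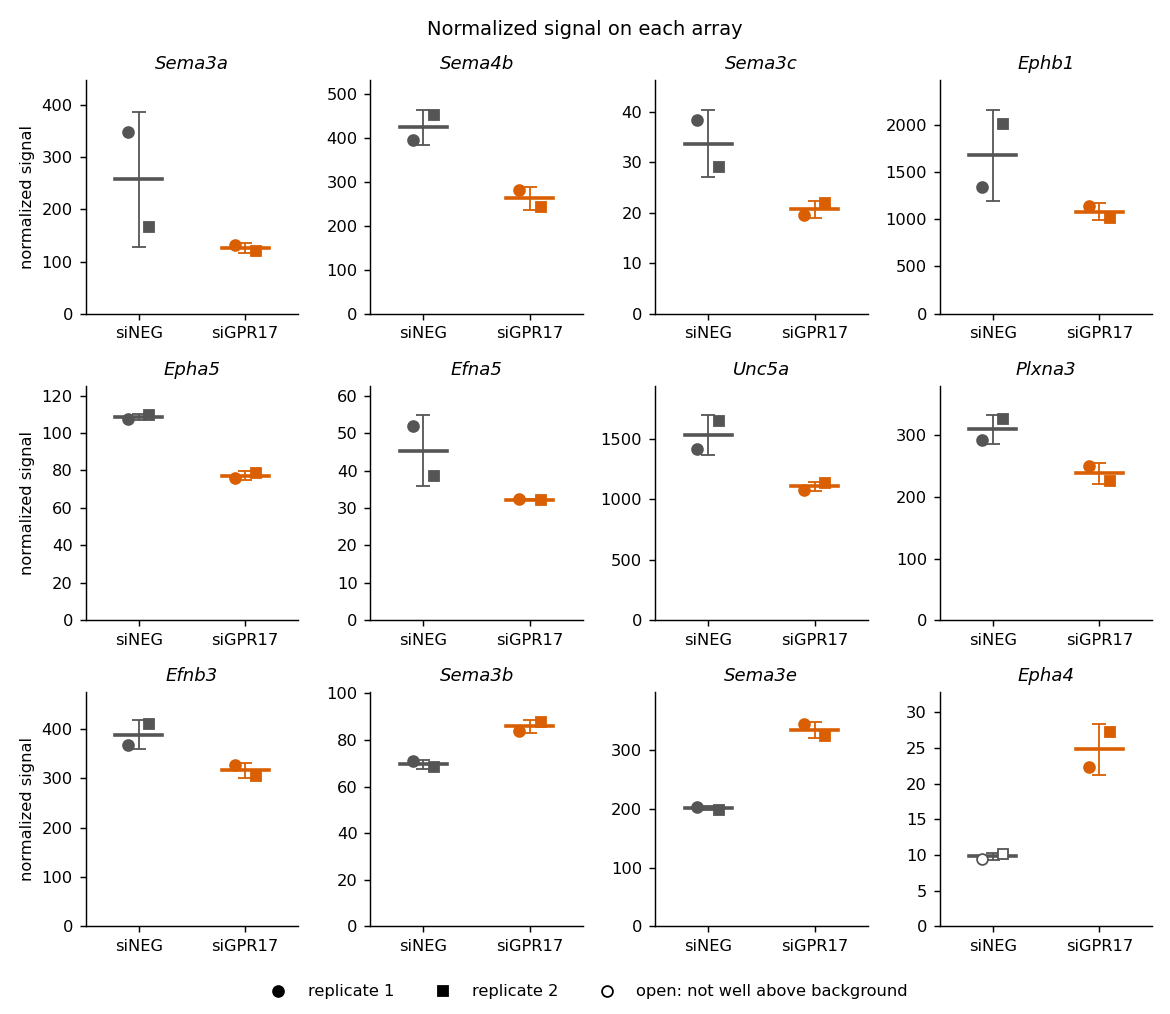
Normalized signal (vertical axes, linear, starting at 0) on each array for the 12 guidance genes with an unadjusted p under 0.05 in limma or a non-overlapping fold of at least 1.5. Circles are replicate 1, squares replicate 2, open symbols are spots not well above background, and lines with bars are the mean ± SD (n = 2). In 9 genes both siGPR17 samples lay below the siNEG samples and in Sema3b, Sema3e and Epha4 above them, and in Sema3a the siNEG replicates stood apart at 349 and 166.

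All 4 plexins on the array were tested, 1 higher and 3 lower, and the groups overlapped in none of them, as in 53.2% of all genes. Plxna3, whose protein transduces class 3 semaphorin signals together with neuropilins, gave 293 and 327 in siNEG and 251 and 226 in siGPR17. Its log2 fold change was -0.38 ± 0.113 with an adjusted p of 0.258. Plxnb3, the plexin typical of oligodendrocytes, gave 10945 and 10896 in siNEG and 11471 and 11750.0 in siGPR17. Although the groups did not overlap, the log2 fold change of Plxnb3 was only 0.088 ± 0.085, with an adjusted p of 0.627. Plxna2 (-0.27) and Plxnb2 (-0.13) were lower, with adjusted p-values of 0.386 and 0.494. Plxna1, Plxna4, Plxnb1 and Plxnd1 were not analysed here.

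All 7 ephrin genes matched to probes were tested, 3 higher and 4 lower. Their median was -0.10 on the log2 scale, but 0.026 with spike-in scaling and 0.057 without siGPR17 replicate 2. Efna5, a GPI-anchored ligand of EphA receptors, gave 52.0 and 38.7 in siNEG and 32.4 and 32.1 in siGPR17. The silenced samples lay together below both controls. Efna5 had a log2 fold change of -0.48 ± 0.171 with an adjusted p of 0.295, but -0.079 after normexp. Efnb3, a transmembrane ephrin present in myelin that inhibits OPC differentiation, gave 367 and 409 in siNEG and 326 and 305 in siGPR17. Its log2 fold change was -0.30 ± 0.105, with an adjusted p of 0.291. Efnb2, a ligand of EphB receptors and EphA4, gave 49.1 and 21.6 in siNEG and 35.4 and 32.8 in siGPR17, so the silenced samples fell between the controls. The 95% interval of its log2 fold change ran from -1.09 to 1.22.

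Of 11 Eph receptors on the array, 9 were tested, 4 higher and 5 lower. Epha4, a receptor for ephrins of both classes, gave the largest positive value of any guidance gene. Its spot read 9.48 and 10.1 in siNEG, not well above background on either array, and 22.3 and 27.3 in siGPR17, well above background on both. On these readings the fold was 2.52. The siNEG side rests on spots not well above background, so the size of the difference is uncertain. After the normexp correction, the log2 fold change was 0.34. This probe passed the filter through the siGPR17 arrays alone and could enter the test only by being brighter there, so that no p is given for it. Another Epha4 probe was nowhere well above background.

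Epha5 encodes a receptor for ephrin-A ligands. Its brightest probe gave 107.2 and 109.5 in siNEG and 75.7 and 78.8 in siGPR17. The groups stood clearly apart, with a log2 fold change of -0.49 ± 0.0872 and an adjusted p of 0.21. Of its other 3 tested probes, 1 gave 47.3 and 105.4 in siNEG and 44.99 and 43.8 in siGPR17 (-0.67 ± 0.41, unadjusted p of 0.175 in limma), with a single control array high. Another had overlapping groups and was well above background on 2 arrays only (-0.63 ± 0.898). The remaining one gave 88.1 and 90.4 in siNEG and 93.8 and 89.6 in siGPR17, a log2 fold change of 0.039.

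Ephb1, a receptor for B-type ephrins, gave 1336 and 2011 in siNEG and 1142 and 1014 in siGPR17. Both silenced samples were low, although the control replicates were widely spread. The log2 fold change was -0.61 ± 0.229 with an adjusted p of 0.308, and it ran from -0.90 without siNEG replicate 1 to -0.31 without siNEG replicate 2. A dimmer Ephb1 probe gave 276 and 283 in siNEG and 211 and 214 in siGPR17, a log2 fold change of -0.40 ± 0.0853 with an adjusted p of 0.216. Ephb2, a further receptor of B-type ephrins, gave 89.9 and 64.2 in siNEG and 69.8 and 113 in siGPR17, with overlapping groups and an adjusted p of 0.736. Epha7 had a log2 fold change of 0.27, with an adjusted p of 0.305. Epha1 and Ephb4 were well above background on 1 array each and were not tested.

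The Slits, netrins and their receptors gave 8 tested genes of 12 on the array. Slit1, a secreted Robo ligand, gave 456 and 501 in siNEG and 407 and 401 in siGPR17, with a log2 fold change of -0.24 ± 0.0964 and an adjusted p of 0.32. Ntn1, which encodes netrin-1, gave 517 and 572 in siNEG and 451 and 482 in siGPR17. Both ligands had their silenced samples below the controls, by a small margin. The log2 fold change of Ntn1 was -0.22 ± 0.104, with an adjusted p of 0.368. Slit3 (-0.17) overlapped between the groups, and Slit2 and Ntn4 were nowhere well above background.

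Among the receptors, Unc5a, which mediates repulsion by netrin-1, had the largest difference. It gave 1413 and 1647 in siNEG and 1077 and 1131 in siGPR17. The silenced samples were low on the brightest probe, at a log2 fold change of -0.47 ± 0.116 with an adjusted p of 0.231, whereas a dimmer probe gave 189 and 145 in siNEG and 157 and 154 in siGPR17 (-0.092). Dcc, the receptor for attraction by netrin-1, gave 184 and 191 in siNEG and 272 and 173 in siGPR17. A single silenced sample was high, the groups overlapped, and the log2 fold change was 0.21 ± 0.243. Unc5b (0.058) and the Slit receptor Robo1 (0.20 ± 0.218) overlapped between the groups too, with adjusted p-values of 0.885 and 0.665. Robo2 and Unc5d were nowhere well above background, nor was Unc5cl, which is counted apart from the receptors. The 8 untested guidance genes had signals of 3.15 to 21.7.

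Across roles, the 26 tested ligands had 12 higher and 14 lower values, and the 18 tested receptors 8 and 10. The groups did not overlap for 17 ligands, 8 higher and 9 lower, and for 12 receptors, 3 higher and 9 lower, where all genes had 28% higher and 25.2% lower. These counts carry no test of a difference between ligands and receptors. The balance of directions over all guidance genes turned with spike-in scaling, where fewer of all genes were lower too (27.2%, against 48%). The 21 tested genes outside the naming rule, Sema3d, Plxna2, Plxnb2 and Epha7 among them, had log2 fold changes between -0.33 and 0.27, with adjusted p-values from 0.305 upward.

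Several guidance genes had more than 1 tested probe, which measured different stretches or transcript records of a gene. Of these 7 genes, 3 had the same sign on all probes (Ephb1, Unc5a and Unc5b) and 4 did not (Dcc, Epha5, Epha7 and Unc5c). In Epha7 the 4 probes ran from -0.049 to 0.38.

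**Figure D4:**
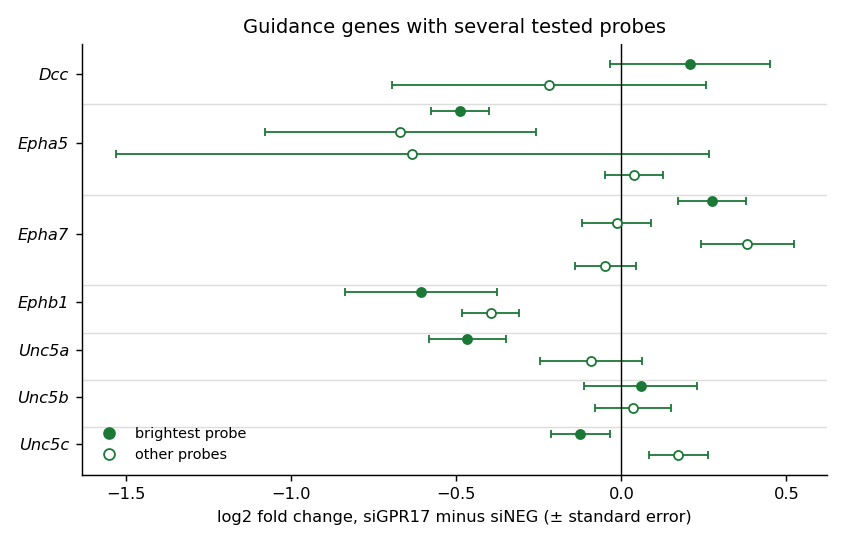
Log2 fold change (horizontal axis, siGPR17 minus siNEG, with the limma standard error, n = 2 per group) of every tested probe in the 7 guidance genes with several of them, filled for the brightest probe and open for the others. Both Ephb1 probes lay left of 0, at -0.61 and -0.40, whereas the probes of Dcc, Epha5, Epha7 and Unc5c fell on both sides.

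A list of guidance partners was read beside the ligands and receptors. It held 74 co-receptors, adhesion partners, further ligands and intracellular effectors, of which 65 were on the array and 58 were tested, and 0 of 58 passed the combined threshold, although Crmp1 did after normexp and with the trend and robust options. The values were higher for 20 and lower for 38 genes (65.5%, against 48% of all genes), and their median was -0.095 on the log2 scale. The non-overlapping genes numbered 8 higher (13.8%, against 28% of all genes) and 20 lower (34.5%, against 25.2%). With spike-in scaling 22 values were lower (37.9%, against 27.2%). The non-overlapping genes then numbered 24 higher (41.4%, against 49.2%) and 11 lower (19%, against 13.2%). An unadjusted p under 0.05 was reached by 2 higher genes (3.45%, against 7.41% of all genes) and 11 lower genes (19%, against 8.71%). This count of 13 (22.4%, against 16.1% of all genes) was 4 with the replicate number as a block (6.9%, against 11%). It was also 4 with the methods' t-test (6.9%, against 14.4%).

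Among the 17 tested co-receptors, adhesion partners and further ligands, the 7 lower genes at this p were Nrp2, Dscam, Dscaml1, Flrt2, Sdc1, Rgma and Adam10. Nrp2, a co-receptor of class 3 semaphorins, gave 57.4 and 75.6 in siNEG and 42.0 and 45.5 in siGPR17, a log2 fold change of -0.59 with an adjusted p of 0.248. Nrp1, the co-receptor of Sema3A, gave 164 and 138 in siNEG and 164 and 173 in siGPR17 (0.17, adjusted p of 0.535). Dscaml1, a homophilic adhesion molecule, had a log2 fold change of -0.54, and Rgma, a repulsive ligand of neogenin, one of -0.39.

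Among the 41 tested intracellular effectors, Crmp1, Vav3, Srgap2 and Tiam1 were lower and Arhgef11 and Arhgap39 higher at the same p. Crmp1, which relays Sema3A signals to the cytoskeleton, gave 6683 and 8374 in siNEG and 4756 and 4663 in siGPR17. Its silenced samples were low and close together. The log2 fold change was -0.67 ± 0.141, with an adjusted p of 0.214, or 0.0475 after normexp and 0.0375 with the trend and robust options. Arhgap39, a GTPase-activating protein that binds Robo, had a log2 fold change of 0.44. Its dim probe gave 20.4 and 16.5 in siNEG and 23.5 and 26.5 in siGPR17, well above background on 3 arrays. The estimate was 0.23 after normexp and 0.90 with a floor for dim probes. The partner list and the guidance genes were measured on the same 4 arrays and are not independent of each other.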

How the data were processed

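RNA of 4 rat OPC samples was labelled with Cy3 and hybridized to one-color Agilent arrays, and per the labels 2 samples received siNEG and 2 siGPR17. The authors deposited scanner intensity values made with Agilent Feature Extraction 10.7.3.1, background-subtracted but not normalized between arrays, with the array design on build rn4. Groups and replicate numbers came from the labels. Control spots were left out, log2 intensity was centered on the 75th percentile of each array, and linear signals are these values times 1 common factor. Probes well above background on at least 2 of 4 arrays were tested (28016 of 45565) with limma 3.58.1 in R 4.3.3. Benjamini-Hochberg adjustment ran over all tested probes. Calls needed a fold of 1.5 and an adjusted p under 0.07, as in the study. Probes were named through their RefSeq records in a GRCr8 gene table (21109 probes had a symbol), which was used for names only, and the brightest tested probe stood for a gene. With 2 samples against 2 an exact permutation test cannot go below a two-sided p of 0.333, so none was run. The number of arrays limits the precision.

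Members and lists were chosen with earlier results of these data known. Genes were named by 4 parts of a rule: an unadjusted p under 0.05 or a fold of 1.5 without overlap, a known role in the oligodendrocyte lineage, the lowest p in families with fewer than 2 such genes, and Gpr17. Alternatives were normexp (on the spot median, offset 50), quantile, median and spike-in scaling, other filters, a floor for dim probes, the methods' t-test, limma's trend and robust options, a replicate block, the mean of a gene's probes and leaving out each sample. Leaving out Unc50 was added after the data were seen, and its counts are not given here. The procedure was tested on simulated data.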

Additional observations from a re-analysis of the deposited data

How the results depend on the processing

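The count of guidance genes past the combined threshold was 0 under every setting tried except the trend and robust options of limma, which gave 2. The genes with a fold of 1.5 and no overlap were 2 higher and 4 lower. They became 1 higher with the filter on all 4 arrays (2.33%, against 1.42% of all genes). After normexp they were 0 higher and 0 lower (against 0.558% and 0.472%). They became 1 lower with spike-in scaling (2.22%, against 1.14%) and 7 lower without a filter (13.2%, against 4.12%). The 10 genes at an unadjusted p under 0.05 became 3 to 19 when 1 sample was left out. In the partner list, 13 such genes became 4 with the methods' t-test, 8 with spike-in scaling and 2 to 14 when 1 sample was left out. The median log2 fold change of -0.092 became -0.047 with a floor for dim probes, -0.047 with the mean of a gene's probes, -0.034 after normexp and 0.037 with spike-in scaling, and ran from -0.12 to -0.024 when 1 sample was left out. The cause of these moves was not tested. Some named genes with overlapping groups reversed. Dcc was -0.0052 with the mean of its probes. With 1 sample left out, Dcc ran from -0.12 (without siGPR17 replicate 1) to 0.54, Efnb2 from -0.53 (without siNEG replicate 2) to 0.66 and Ephb2 from -0.12 (without siGPR17 replicate 2) to 0.57, at -0.02 without siNEG replicate 2. Robo1 ran from -0.033 to 0.44 and Unc5b from -0.15 to 0.27, both below 0 without siNEG replicate 1. Of 35 genes recomputed singly, the other 30 kept their direction under every setting tried, with Plxnb2 at -0.0028 under spike-in scaling.

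Replicate numbers were shared between the groups but nothing in the labels ties them together, and the deviations of same-numbered samples correlated at -0.065. With the replicate number as a block, 0 guidance genes passed the combined threshold. An unadjusted p under 0.05 was reached by 8 guidance genes, Epha4 included (17.8%, against 11% of all genes), and 4 partners (6.9%). The dim probes of Epha4, Sema3c and Efna5 had log2 fold changes of 0.34, -0.13 and -0.079 after normexp with its offset of 50. The parts of the correction and of the offset were not tested.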
